A study of Mus musculus with 15 samples.

Results

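The respiratory chain and ATP synthase genes were described across lung basophils, eosinophils and natural helper cells of naive and papain-treated mice. The members were the 89 of 21110 gene rows whose symbols begin with Ndufa, Ndufb, Ndufc, Ndufs, Ndufv, Uqcr, Sdh, Cox4i, Cox5, Cox6, Cox7, Cox8 or Atp5. They comprised 36 rows of complex I, 4 of complex II, 6 of complex III, 18 of complex IV and 15 of complex V, plus 10 rows for assembly factors and relatives that are not subunits. Cox7b2 and Cox8c were at 0 in every library, and the other 87 members passed the low-value filter of 1 FPKM or more in at least 2 libraries. Ndufb1, Uqcr10 and Uqcr11, and the subunits encoded by mitochondrial DNA, are not analysed here.

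Values were FPKM (fragments scaled to transcript length and to library size), which the table gives as whole numbers. The 15 libraries came from C57BL6/J mice. The treated groups were papain basophils (2 libraries), papain CD11c- eosinophils (2), papain CD11c+ eosinophils (2), papain natural helper cells (2) and, as a single library, cells of that last kind labelled 3'UTRKO. The naive groups, with 2 libraries each, were basophils, eosinophils and natural helper cells, the last also called group 2 innate lymphoid cells. Treated mice had been given 50 ug of papain, a plant protease used as an airway allergen, intranasally on 3 days. Basophils were sorted by FceR1 and CD49b without c-kit, natural helper cells as lineage-negative cells bearing Thy1.2, IL7Ra and CD25, and eosinophils by SiglecF, low Gr1 and lack of autofluorescence, with a CD11c gate in papain mice alone. The gene altered in 3'UTRKO mice is not named in the labels, which give the same strain for that library. Nothing in the labels says that replicate libraries came from separate mice, so p-values measure the spread between libraries, which may be technical.

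The respiratory chain sits in the inner mitochondrial membrane. Complex I (NADH dehydrogenase) and complex II (succinate dehydrogenase) pass electrons to ubiquinone, complex III (cytochrome bc1) passes them to cytochrome c, and complex IV (cytochrome c oxidase) passes them to oxygen. Complexes I, III and IV pump protons, and complex V (ATP synthase) lets them back through to make ATP. Most subunits are encoded in the nucleus and imported, and transcript levels do not measure the assembled complexes or oxygen use. Lymphocytes are known to raise both glycolysis and mitochondrial respiration on activation. Among mature granulocytes, neutrophils are known for few mitochondria and a strong use of glycolysis, which need not hold for eosinophils or basophils.

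Facts of the whole table bear on these values. The FPKM of a library summed to between 374841 and 570208, which is not a read depth, and small RNA genes took 6.48% to 25.4% of that sum. Read depth is unknown, so no counting interval is given. Fewer cells of a type and less RNA per cell cannot be told apart in these bulk libraries. The labelled basophil type went with its markers unevenly: the 10 basophil markers summed to 744 and 2006 FPKM in papain basophils, against 5914 to 6841 FPKM in naive basophils, with none at 0 in any of the 4 libraries. Natural helper cell markers summed to 2180 to 5361 FPKM over the naive and papain libraries of that cell type. Eosinophil markers summed to 1318 to 3513 FPKM over all eosinophil libraries, and Prg2, one of them, had 86 and 1519 FPKM in naive eosinophils. Neutrophil markers summed to more than eosinophil markers in these libraries. Their sums were 8784 to 16571 FPKM in naive, 6486 to 9251 FPKM in papain CD11c- and 12392 to 14226 FPKM in papain CD11c+ libraries. Retnlg, S100a8 and S100a9 carried most of each of these sums. In naive eosinophils Retnlg had 13759 and 7600 FPKM, whereas Csf3r had 35 and 17 FPKM and Cxcr2 18 and 11 FPKM. The part of neutrophil markers in the members' values was not tested. In papain basophils, 79 of the 87 tested members were higher in library 1 than in library 2, and in naive basophils 67 were. Papain CD11c- eosinophils leaned the other way, with 78 members higher in library 2.

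Promoter letters of the binding site of NRF1, a factor known to act on many nuclear genes for the respiratory chain, are shown first because many members changed in the same direction between groups. The letters searched were GCGC, any 2 bases and GCGC, which read the same on both strands, within 250 bases before to 50 bases after the start of each gene in RefSeq (GRCm38.p6). They were found in 20 of the 74 members matched by symbol (27.0%), in 13.5% of 11105 tested genes with a promoter entry and in 6.23% of all 32851 promoters. The letters CCGGAAG, a core of ETS-family sites searched on both strands, were found in 18 of the 74 members (24.3%), in 18.1% of tested genes and in 8.86% of all promoters. Cox6a1, Sdhd, Atp5h and Atp5k held both sets of letters, and whether the matches overlapped was not scored. The windows below are on the minus strand of GRCm38.p6, 5′ to 3′, with the NRF1 letters in capitals, for members of complexes I, II, IV and V whose values are given further on.
Ndufs6 (chr13:73328479-73328508): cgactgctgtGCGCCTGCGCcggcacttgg
Ndufa5 (chr6:24527697-24527726): tgtgtgagctGCGCAGGCGCaaatctacct
Sdhd (chr9:50603909-50603938): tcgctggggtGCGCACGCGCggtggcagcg
Cox6a1 (chr5:115349056-115349085): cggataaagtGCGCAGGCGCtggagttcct
Atp5k (chr5:108434430-108434459): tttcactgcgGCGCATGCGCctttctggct
Atp5g2 (chr15:102671070-102671099): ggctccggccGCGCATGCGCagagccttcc
Each match is a description of letters in a window and not evidence of binding. Of the 20 members with the NRF1 letters, 11 were called higher in papain than in naive basophils, beside 44 of all 87 tested members and 22.1% of all genes.

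The members differed widely in level on the per-length FPKM scale. Complex V held 27.3% to 37.0% of the members' FPKM, beside 25.4% to 33.4% for complex IV, 22.7% to 27.5% for complex I, 7.9% to 10.3% for complex III and 1.27% to 2.55% for complex II. Averaged over all 15 libraries, the most abundant members were Atp5e (epsilon subunit of ATP synthase) at 367 FPKM, Cox4i1 (the main form of cytochrome oxidase subunit 4) at 322 FPKM and Uqcrh (hinge protein of complex III) at 279 FPKM. Ndufa3, an accessory subunit, was the highest of complex I at 211 FPKM, and Ndufa11, another accessory subunit, the lowest at 6.13 FPKM. Within complex II, Sdhb averaged 40.5 FPKM and Sdhc 25.5 FPKM, so that its subunits lay close together. The lowest of complex III was Uqcrc2, a core protein, at 28.6 FPKM, and the lowest of complex V was Atp5g1, a gene for subunit c, at 35.4 FPKM.

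The summed FPKM of the members was 9716 and 6249 in papain basophils, against 4454 and 3547 in naive basophils, a ratio of means of 2.00 (7983 ± 2452 and 4001 ± 641, SD, n = 2 each). Papain CD11c+ eosinophils had sums of 7376 and 8339 FPKM and papain CD11c- eosinophils 5189 and 6266 FPKM, against 5868 and 4901 FPKM in naive eosinophils. Papain natural helper cells had sums of 7469 and 8251 FPKM, against 6372 and 7571 FPKM in naive natural helper cells. The sums did not overlap between papain and naive libraries in basophils, nor between CD11c+ and naive eosinophils, and they overlapped in the other papain comparisons. The 3'UTRKO library had a sum of 6294 FPKM, under both papain natural helper cell libraries. Among naive cells the sums ran in the order natural helper cells, eosinophils and basophils, with no overlap between neighbours.

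**Figure D1:**
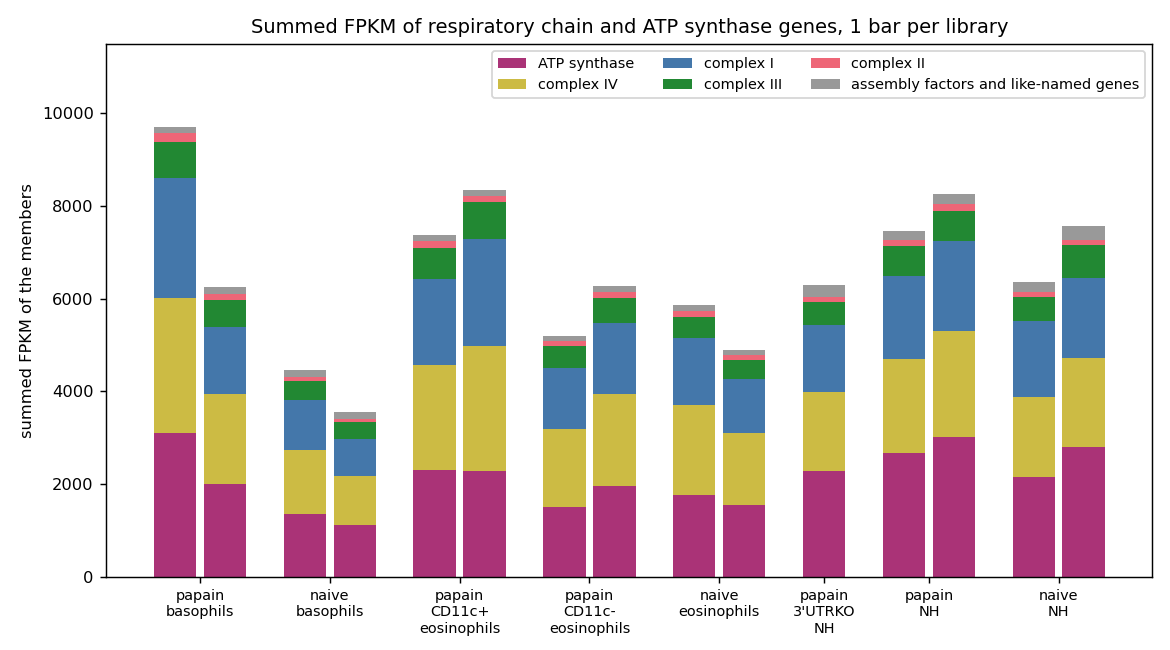
Summed FPKM of the members (y axis) in every library, 1 stacked bar a library with 1 colour a complex and papain libraries to the left of naive ones for each cell type. Over all members the sums were 9716 and 6249 FPKM in papain basophils, against 4454 and 3547 FPKM in naive basophils, and complexes V, IV and I held most of the FPKM in every group.

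As a share of each library's total FPKM, the members made up 2.01% and 1.10% in papain basophils, against 1.01% and 0.83% in naive basophils. The first papain library lay well above both naive ones, and the second only just above the higher naive one. In papain natural helper cells the share was 1.80% and 1.83%, against 1.37% and 1.5% in naive natural helper cells. These groups did not overlap, unlike the plain sums. In papain CD11c+ eosinophils the share was 1.62% and 1.66%, and in papain CD11c- eosinophils 1.38% and 1.52%, against 1.43% and 1.29% in naive eosinophils. With small RNA genes left out of the totals, the shares were 2.25% and 1.27% in papain basophils, against 1.14% and 1.03% in naive basophils, and 2.08% and 2.05% in papain natural helper cells, against 1.84% and 1.91% in naive natural helper cells.

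The first comparison asks how these genes differed in basophils after papain. In papain basophils, 44 of the 87 tested members were higher than in naive basophils and none was lower. The higher members came from every complex, with 19 of 36 in complex I, 4 of 4 in complex II, 3 of 6 in complex III, 8 of 16 in complex IV, 8 of 15 in complex V and 2 of 10 among the non-subunits. The median log2 difference of the members was 1.00, beside 0.50 over all genes tested. A call means an adjusted p under 0.05 in limma on log2(FPKM + 1), with Benjamini-Hochberg adjustment over the 14257 genes tested. Among all genes, 22.1% were called higher and 3.88% lower. At an unadjusted p under 0.05, no member was lower, beside 6.11% of all genes.

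The median of all genes was itself above 0, so the members' differences are read beside it. Most members are short, and other genes of like level with transcripts under 1000 bases had a median of 1.04. That is as large as the members' median, and the part of length was not tested. The 2 libraries of each group did not overlap and papain was higher for 65 members, beside 37.5% of all genes, and lower for 2 members, beside 8.91%. The 2 were Ndufa6, an accessory subunit of complex I, and Cox7a2l, a factor of supercomplex assembly of which C57BL/6 mice are known to carry a shortened form; Ndufa6 was picked out after its values were seen. Ndufa6 had 120 and 100 FPKM in papain basophils, against 143 and 133 FPKM in naive basophils. Cox7a2l had 85 and 106 FPKM in papain basophils, against 123 and 113 FPKM in naive basophils. Neither passed the test, with log2 differences of -0.33 and -0.31. Of the 87 members, 83 had a positive log2 difference.

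**Figure D2:**
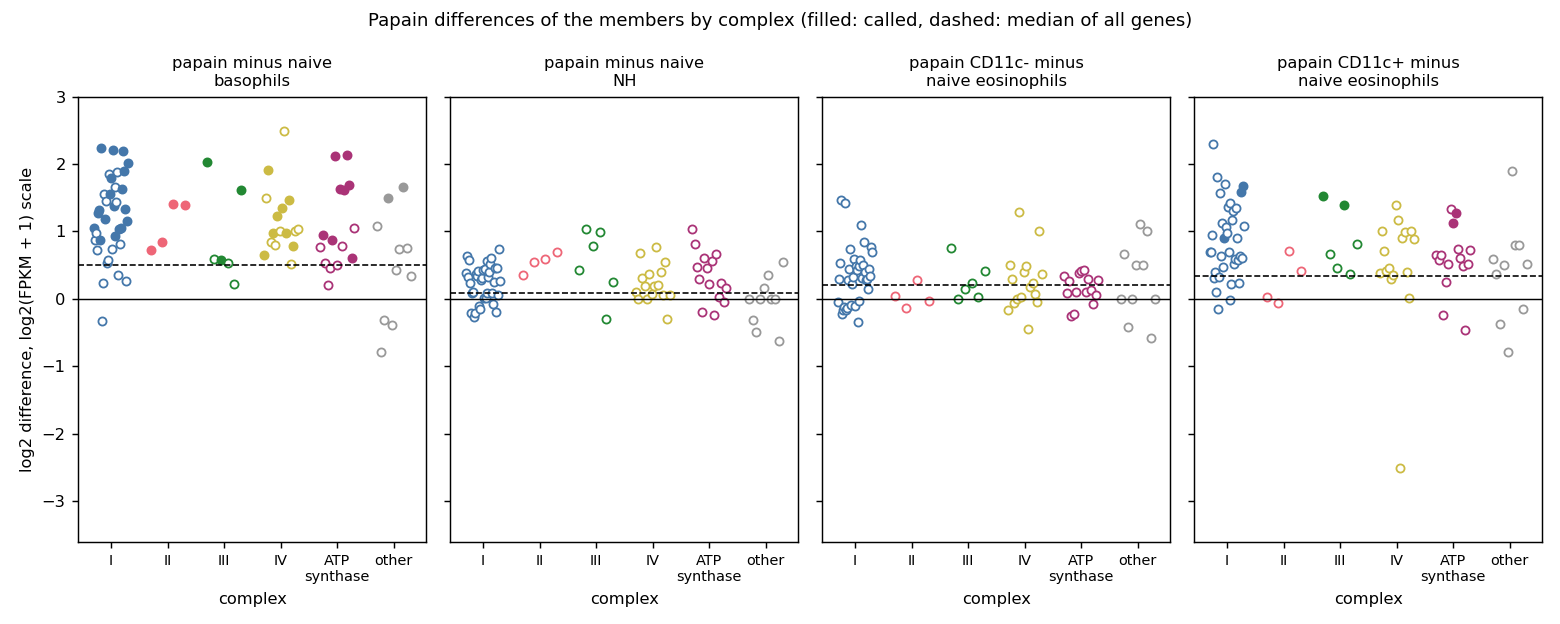
Log2 difference of every tested member (y axis, log2(FPKM + 1) scale) by complex (x axis) for the papain comparisons; filled points passed the adjusted p of 0.05 and the dashed line is the median of all genes tested. In basophils 44 members were called higher and the members' median was 1.00 beside 0.50 for all genes, whereas no member was called in natural helper cells or CD11c- eosinophils.

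Complex I had the largest median difference in papain basophils, at 1.24. Ndufa5, an accessory subunit of the arm that reaches into the matrix, had 69 and 22 FPKM in papain basophils, against 11 and 5 FPKM in naive basophils. Its log2 difference was 2.24 ± 0.56 (SE; adjusted p = 0.0200). Both papain libraries lay above both naive ones, and the papain libraries differed from each other by more than the naive ones did. Ndufb6, an accessory subunit of the membrane arm, had 85 and 53 FPKM in papain basophils, against 17 and 11 FPKM in naive basophils (log2 difference 2.21 ± 0.25, adjusted p = 0.00073). Ndufs6, an accessory subunit of the NADH-binding end, had 80 and 71 FPKM in papain basophils, against 22 and 11 FPKM in naive basophils (2.20 ± 0.35, adjusted p = 0.0036). In both genes the lower papain library was more than 2-fold above the higher naive library.

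The other 16 called members of complex I had log2 differences between 0.87 for Ndufa3 and 2.01 for Ndufv3, an accessory subunit of the NADH-binding end. The subunits that carry the redox centres did not move alike. Ndufv1, which binds NADH and flavin, had 22 and 11 FPKM in papain basophils, against 15 and 11 FPKM in naive basophils. Ndufs1, the largest iron-sulfur subunit, had 17 and 9 FPKM in papain basophils, against 9 and 10 FPKM in naive basophils. In each the second papain library equalled the lower naive one, with log2 differences of 0.26 ± 0.31 (adjusted p = 0.575) and 0.36 ± 0.27 (adjusted p = 0.360). Ndufa3, the most abundant member of complex I, had 325 and 214 FPKM in papain basophils, against 173 and 119 FPKM in naive basophils, without overlap.

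All 4 subunits of complex II were higher in papain basophils, with a median log2 difference of 1.12. Sdhc and Sdhd anchor the enzyme in the membrane. Sdhc had 50 and 27 FPKM in papain basophils, against 16 and 11 FPKM in naive basophils (log2 difference 1.4 ± 0.30, adjusted p = 0.0122). Sdhd had 42 and 30 FPKM in papain basophils, against 14 and 12 FPKM in naive basophils (1.39 ± 0.30, adjusted p = 0.0119). Both papain libraries lay above both naive ones. Sdhb, the iron-sulfur subunit, had 54 and 33 FPKM in papain basophils, against 23 and 23 FPKM in naive basophils (0.85 ± 0.26, adjusted p = 0.0389). Sdha, the flavoprotein that oxidises succinate, had 40 and 34 FPKM in papain basophils, against 25 and 19 FPKM in naive basophils (0.73 ± 0.18, adjusted p = 0.0202). The 2 catalytic subunits thus had smaller differences than the 2 anchors, which was not tested.

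In complex III the median log2 difference was 0.59, and the 3 members called were accessory subunits or a core protein. Uqcrb, which lies near the ubiquinone site, had 209 and 140 FPKM in papain basophils, against 47 and 36 FPKM in naive basophils (log2 difference 2.03 ± 0.26, adjusted p = 0.0014). Uqcrq had 168 and 106 FPKM in papain basophils, against 46 and 40 FPKM in naive basophils (1.62 ± 0.25, adjusted p = 0.0029). Papain and naive libraries were far apart in both. Uqcrc2, a core protein, had 36 and 31 FPKM in papain basophils, against 21 and 23 FPKM in naive basophils (0.58 ± 0.18, adjusted p = 0.0407). Relative to all genes this is a small difference, and under quantile scaling it was -0.00698. Uqcrc1, the other core protein, had 39 and 23 FPKM in papain basophils, against 19 and 20 FPKM in naive basophils, and did not pass (0.60, adjusted p = 0.200). Uqcrfs1, the Rieske iron-sulfur protein, had 47 and 26 FPKM in papain basophils, against 30 and 19 FPKM in naive basophils, so that the groups overlapped (0.53, adjusted p = 0.307).

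Of the 16 tested complex IV members, 8 were higher in papain basophils, with a median log2 difference of 1.00. Cox5a, a subunit on the matrix side, had 218 and 140 FPKM in papain basophils, against 59 and 35 FPKM in naive basophils (log2 difference 1.92 ± 0.32, adjusted p = 0.0043). Cox7b had 106 and 39 FPKM in papain basophils, against 34 and 15 FPKM in naive basophils (1.47 ± 0.45, adjusted p = 0.0427). Cox6c had 271 and 160 FPKM in papain basophils, against 102 and 64 FPKM in naive basophils (1.35 ± 0.35, adjusted p = 0.0222). No group overlap was seen in these 3, although the lower papain library of Cox7b came within 5 FPKM of the higher naive one. Cox4i1 had 406 and 398 FPKM in papain basophils, against 276 and 235 FPKM in naive basophils, and here both papain libraries lay close together (0.66 ± 0.18, adjusted p = 0.0299). Ndufa4, a subunit of complex IV first assigned to complex I, had 297 and 84 FPKM in papain basophils, against 75 and 78 FPKM in naive basophils. Its difference came from the first papain library and did not pass (1.04, adjusted p = 0.154).

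In complex V, 8 of 15 members were higher in papain basophils, with a median log2 difference of 0.88. Atp5j2, subunit f of the membrane part, had 286 and 195 FPKM in papain basophils, against 72 and 39 FPKM in naive basophils (log2 difference 2.13 ± 0.36, adjusted p = 0.0042). Atp5k, subunit e of the membrane part, had 494 and 254 FPKM in papain basophils, against 108 and 111 FPKM in naive basophils (1.69 ± 0.43, adjusted p = 0.0228). Every papain library was more than 2-fold above every naive one for both. The catalytic head was less far apart: Atp5b, the beta subunit, had 235 and 144 FPKM in papain basophils, against 115 and 79 FPKM in naive basophils (0.94 ± 0.28, adjusted p = 0.0370). Atp5a1, the alpha subunit, had 114 and 73 FPKM in papain basophils, against 62 and 45 FPKM in naive basophils, and did not pass (0.78 ± 0.27, adjusted p = 0.0653). Among the non-subunits, Ndufaf4 and Ndufa4l2 were called, and Ndufa4l2 had no more than 3 FPKM in any library, where 1 FPKM is the rounding step.

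**Figure D3:**
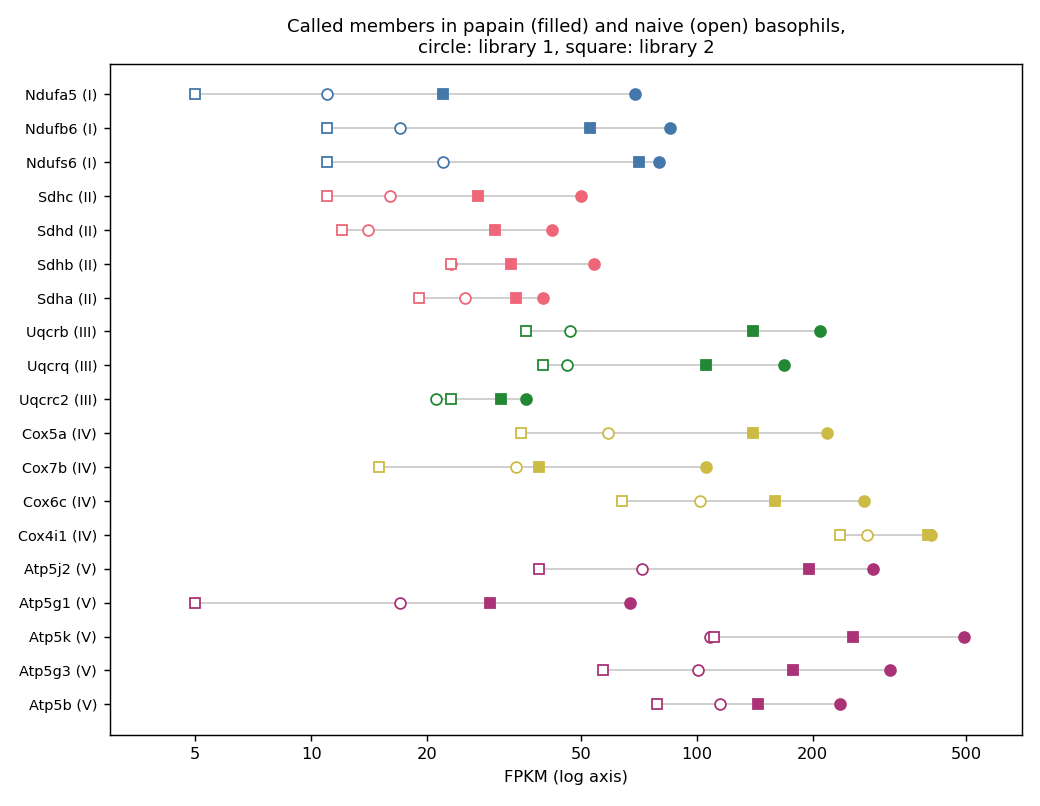
FPKM per library (x axis, log scale) of the called members named here (y axis, complex in brackets) in papain (filled) and naive (open) basophils, with circles for library 1 and squares for library 2. For Ndufb6, Uqcrb and Atp5j2 both papain libraries lie well clear of both naive ones, whereas for Cox7b the second papain library, at 39 FPKM, lies close to the higher naive one, at 34 FPKM.

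The number of calls in basophils rests on single libraries and on scaling. It was 9 without naive basophil library 2 and 14 without papain basophil library 1. It was 18 to 20 under median-ratio or quantile scaling or with small RNA genes left out, where the members' median stayed at 0.52 to 0.75 beside -0.08 to 0.33 over all genes, and no member was called with the basophil libraries fitted alone. Ndufb6, Ndufs6, Uqcrb, Uqcrq, Atp5j2 and Cox5a were called under every alternative tried other than that one. Between the papain libraries, library 2 minus library 1 had a median log2 difference of -0.70 over members and 0.00 over all genes, and 23 members differed more than 2-fold on the log2(FPKM + 1) scale. Between naive libraries the median was -0.39 over members and -0.22 over all genes.

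Markers of other cells moved with the same comparison. Of the 10 basophil markers, 9 were lower in papain basophils, with a median log2 difference of -2.77; Mcpt8, a basophil protease, had 30 and 95 FPKM in papain basophils, against 824 and 252 FPKM in naive basophils. Summed fibroblast markers were 707 and 214 FPKM in papain basophils, against 11 and 3 FPKM in naive basophils, with 6 of 7 higher. Epithelial markers were 20539 and 34700 FPKM in papain basophils, against 6651 and 8734 FPKM in naive basophils, with 8 of 12 higher. A single gene, Scgb1a1, held most of the epithelial sum in every library. It had 19550 and 32382 FPKM in papain basophils, against 6363 and 8531 FPKM in naive basophils. Alveolar macrophage markers were 11704 and 292 FPKM in papain basophils, against 63 and 44 FPKM in naive basophils, with 3 of 9 higher. Of these papain sums, Chi3l3 alone had 10500 and 109 FPKM. Monocyte and macrophage markers were 4888 and 1150 FPKM in papain basophils, against 733 and 154 FPKM in naive basophils, with 2 of 10 higher. Papain library 1, with the higher members, thus also had more fibroblast and macrophage signal and less basophil signal than papain library 2. Neutrophil markers were 3221 and 7535 FPKM in papain basophils, against 268 and 537 FPKM in naive basophils, with 3 of 8 higher, and endothelial markers 118 and 368 FPKM, against 51 and 29 FPKM, with 6 of 8 higher. Markers of several other lung cells were thus higher where basophil markers were lower, and their part in the members' result was not tested.

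In natural helper cells, no member passed the test after papain, beside 0.786% of all genes in either direction. At an unadjusted p under 0.05, 12 members were higher, beside 8.75% of all genes. The libraries did not overlap and papain was higher for 43 members, beside 26.1% of all genes. The members' median log2 difference was 0.27, beside 0.09 over all genes, with medians of 0.60 in complex III, 0.57 in complex II, 0.30 in complexes I and V and 0.19 in complex IV. Under median-ratio scaling the members' median was 0.00, and with the 4 natural helper cell libraries fitted alone, 2 members were called.

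Catalytic subunits of ATP synthase were among the members with the widest separation in natural helper cells. Atp5a1 had 148 and 157 FPKM in papain natural helper cells, against 73 and 74 FPKM in naive natural helper cells (log2 difference 1.04 ± 0.27, adjusted p = 0.161). Atp5b had 289 and 338 FPKM in papain natural helper cells, against 156 and 200 FPKM in naive natural helper cells (0.82 ± 0.28, adjusted p = 0.294). Replicates lay close together and the groups did not overlap, yet neither gene passed after adjustment. Uqcrfs1 had 70 and 69 FPKM in papain natural helper cells, against 33 and 36 FPKM in naive natural helper cells (0.99 ± 0.35, adjusted p = 0.319), and Uqcrc1 39 and 38 FPKM, against 15 and 22 FPKM (1.04 ± 0.31, adjusted p = 0.233). Cox4i1 had 360 and 380 FPKM in papain natural helper cells, against 313 and 383 FPKM in naive natural helper cells, and Atp5j2 205 and 240 FPKM, against 191 and 248 FPKM. Those 2 genes overlapped between groups. Natural helper cell markers summed to 5213 to 5361 FPKM in papain natural helper cells, against 2180 to 4525 FPKM in naive natural helper cells. Alveolar macrophage markers summed to 175 to 978 FPKM in papain natural helper cells, against 68 to 119 FPKM in naive natural helper cells, and T cell markers to 196 to 219 FPKM, against 321 to 339 FPKM, with no marker of either list called. Their part in the members' values was not tested.

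In papain CD11c- eosinophils, no member passed the test against naive eosinophils, beside 2.24% of all genes in either direction. At an unadjusted p under 0.05, 3 members were higher, beside 11.4% of all genes, so the members' share was under that of all genes. The median log2 difference was 0.28, beside 0.21 over all genes. The 3 were Uqcrb, Ndufv2 (an iron-sulfur subunit of the NADH-binding end) and Ndufa5, named because they are few. Uqcrb had 86 and 116 FPKM in papain CD11c- eosinophils, against 53 and 65 FPKM in naive eosinophils (log2 difference 0.76 ± 0.26, adjusted p = 0.220). Fibroblast markers summed to 222 to 352 FPKM in papain CD11c- eosinophils, against 2 to 5 FPKM in naive eosinophils, with 5 of 7 higher, and epithelial markers to 6575 to 8971 FPKM, against 713 to 1815 FPKM, with 2 of 12 higher. T cell markers summed to 17 to 98 FPKM in papain CD11c- eosinophils, against 1 FPKM in each naive eosinophil library, with none of 7 called. The part of these cells was not tested.

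In papain CD11c+ eosinophils, 7 members were higher than in naive eosinophils and none was lower. As a share of members this lay below the 9.93% of all genes called higher, and 2.2% of all genes were called lower. At an unadjusted p under 0.05 no member was lower, beside 5.98% of all genes. The libraries did not overlap and papain CD11c+ was higher for 62 members, beside 34% of all genes, and the members' median log2 difference was 0.65, beside 0.34 over all genes. Complexes I and III had the larger medians, at 0.80 and 0.74, and complex II the smallest, at 0.22. The 7 were Ndufb11, Ndufs8, Ndufv2, Uqcrb, Uqcrfs1, Atp5g2 and Atp5g3.

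Ndufv2 had 32 and 59 FPKM in papain CD11c+ eosinophils, against 13 and 13 FPKM in naive eosinophils (log2 difference 1.67 ± 0.30, adjusted p = 0.0103). Ndufs8, an iron-sulfur subunit of the matrix arm, had 20 and 38 FPKM in papain CD11c+ eosinophils, against 8 and 9 FPKM in naive eosinophils (1.59 ± 0.34, adjusted p = 0.0197). In both, every papain CD11c+ library was more than 2-fold above every naive one, and the second was the higher. Uqcrb had 171 and 172 FPKM in papain CD11c+ eosinophils, against 53 and 65 FPKM in naive eosinophils (1.53 ± 0.26, adjusted p = 0.0087). Uqcrfs1 had 47 and 85 FPKM in papain CD11c+ eosinophils, against 23 and 24 FPKM in naive eosinophils (1.39 ± 0.35, adjusted p = 0.0367). Both complex III genes were clear of the naive range, and the Uqcrb replicates lay 1 FPKM apart. Ndufb11, an accessory subunit of the membrane arm, had 80 and 128 FPKM in papain CD11c+ eosinophils, against 62 and 46 FPKM in naive eosinophils (0.91 ± 0.25, adjusted p = 0.0478). No complex II member was called. Sdhc had 36 and 32 FPKM in papain CD11c+ eosinophils, against 22 and 19 FPKM in naive eosinophils, and Sdhd 43 and 32 FPKM, against 27 and 28 FPKM, both without overlap. The catalytic subunits overlapped between groups: Sdha had 29 and 27 FPKM in papain CD11c+ eosinophils, against 26 and 29 FPKM in naive eosinophils, and Sdhb 60 and 42 FPKM, against 56 and 49 FPKM.

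The CD11c+ count was 0 without naive eosinophil library 1, 1 without naive library 2, 2 without CD11c+ library 2 and 13 without CD11c+ library 1. It was 3 under median-ratio scaling or with small RNA genes left out. Fibroblast markers summed to 484 to 533 FPKM in papain CD11c+ eosinophils, against 2 to 5 FPKM in naive eosinophils, with 6 of 7 higher. Monocyte and macrophage markers summed to 1871 to 2062 FPKM, against 893 to 1096 FPKM, with 4 of 10 higher, and epithelial markers to 8377 to 9936 FPKM, against 713 to 1815 FPKM, with 5 of 12 higher. Eosinophil markers summed to 1634 to 1656 FPKM in papain CD11c+ eosinophils, against 1318 to 3513 FPKM in naive eosinophils. The part of these other cells in the members' values was not tested.

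Set against each other, the 2 gates of papain eosinophils gave no called member, beside 0.0561% of all genes. Before adjustment, at a p under 0.05, 13 members were higher in CD11c+ eosinophils, beside 6.4% of all genes. CD11c+ lay above CD11c- without overlap for 51 members, beside 20.8% of all genes, and the members' median log2 difference was 0.45, beside 0.00 over all genes. Ndufs8 had 20 and 38 FPKM in CD11c+ eosinophils, against 11 and 13 FPKM in CD11c- eosinophils (log2 difference 1.14, adjusted p = 0.467). Uqcrfs1 had 47 and 85 FPKM in CD11c+ eosinophils, against 24 and 32 FPKM in CD11c- eosinophils (1.16, adjusted p = 0.479). The libraries were apart in both genes, without passing the adjusted test. Alveolar macrophage markers summed to 1122 to 1343 FPKM in CD11c+ eosinophils, against 327 to 453 FPKM in CD11c- eosinophils, and monocyte and macrophage markers to 1871 to 2062 FPKM, against 715 to 1051 FPKM. Neutrophil markers summed to 12392 to 14226 FPKM in CD11c+ eosinophils, against 6486 to 9251 FPKM in CD11c- eosinophils, and fibroblast markers to 484 to 533 FPKM, against 222 to 352 FPKM. No marker of these lists was called between the gates, all 4 sums were higher in CD11c+ eosinophils as the members were, and their part was not tested.

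The single 3'UTRKO library was set against the 2 papain natural helper cell libraries, assuming that it varies like the other groups. No member passed, beside 0.568% of all genes in either direction. Before adjustment, at a p under 0.05, 5 members were higher, beside 3.39% of all genes, and 11 were lower, beside 5.84%. The 5 were Ndufb4, Sdhaf1, Ndufa4l2, Atp5g2 and Atp5l, and Ndufb4 and Atp5l were named after their values were seen. The library lay under both papain natural helper cell libraries for 68 members, beside 37.7% of all genes, and the median log2 difference was -0.40, beside -0.07 over all genes. Ndufs5, an accessory subunit of complex I, had 12 FPKM in the 3'UTRKO library, against 30 and 36 FPKM in papain natural helper cells (log2 difference -1.38 ± 0.28, adjusted p = 0.0998). Cox5a had 54 FPKM in the 3'UTRKO library, against 110 and 134 FPKM in papain natural helper cells (-1.15 ± 0.39, adjusted p = 0.365). Atp5b had 165 FPKM in the 3'UTRKO library, against 289 and 338 FPKM in papain natural helper cells (-0.92 ± 0.34, adjusted p = 0.432). These 3 were below both libraries. Sdhaf1, an assembly factor that helps load iron-sulfur clusters into Sdhb, went the other way, with 61 FPKM in the 3'UTRKO library, against 26 and 30 FPKM in papain natural helper cells (1.10 ± 0.37, adjusted p = 0.358). With only the 3'UTRKO and papain natural helper cell libraries fitted, members were called, most of them lower. That fit takes its spread from the 2 papain natural helper cell libraries alone, so no conclusion is drawn from its count. Epithelial markers summed to 4383 FPKM in the 3'UTRKO library, against 728 to 2016 FPKM in papain natural helper cells, and their part was not tested.

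Differences between papain responses were tested as interaction terms. For eosinophils, the response sets papain CD11c- cells against naive cells sorted without a CD11c gate. Papain and the gate cannot be told apart in that term. Against the response of natural helper cells, the response of basophils was larger for 4 members, beside 4.64% of all genes: Atp5j2 by 2.11 ± 0.50 (log2, SE; adjusted p = 0.0434), Ndufb6 by 1.76 ± 0.35 (adjusted p = 0.0215), Uqcrb by 1.61 ± 0.37 (adjusted p = 0.0388) and Ndufs5 by 1.38 ± 0.32 (adjusted p = 0.0412). The 4 members' share was the same size as that of all genes. Ndufs5 had 49 and 45 FPKM in papain basophils, against 19 and 11 FPKM in naive basophils, and 30 and 36 FPKM in papain natural helper cells, against 29 and 26 FPKM in naive natural helper cells. For this gene, and for Ndufb6, the naive basophil libraries were low and the papain libraries of both cell types were nearer to each other. Against CD11c- eosinophils, Ndufb6 was the 1 member with a larger response in basophils, beside 1.61% of all genes (1.79 ± 0.35, adjusted p = 0.0354). Between natural helper cells and CD11c- eosinophils no member passed the adjusted test, beside 1.21% of all genes, while the core proteins Uqcrc1 and Uqcrc2 (2 members) did at an unadjusted p under 0.05, with the larger response in natural helper cells, beside 5.16%; they were named after their values were seen. For the other members, a call in basophils and none elsewhere is not a tested difference.

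Naive cells were compared next, where papain plays no part. Markers of other cells also differed between these groups. Epithelial markers summed to 6651 to 8734 FPKM in naive basophils. They summed to 713 to 1815 FPKM in naive eosinophils and 110 to 1836 FPKM in naive natural helper cells. Neutrophil markers summed to 268 to 537, 8784 to 16571 and 21 to 173 FPKM in the same order. Fibroblast markers summed to 3 to 11, 2 to 5 and 202 to 317 FPKM. Their part in the members' values was not tested. Naive basophils were lower than naive natural helper cells for 20 of the 87 members and higher for none. Among all genes 13.6% were lower and 6.96% higher, and at an unadjusted p under 0.05 no member was higher, beside 9.88% of all genes. The libraries did not overlap and naive basophils were lower for 69 members, beside 34.7% of all genes. The median log2 difference was -0.86, beside -0.34 over all genes, and -0.93 in complex I and -1.01 in complex V. Of the 20, 10 belonged to complex I, 5 to complex V, 2 to complex IV and 1 each to complexes II and III and the non-subunits.

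Sdhaf1 had 6 and 9 FPKM in naive basophils, against 42 and 45 FPKM in naive natural helper cells (log2 difference -2.41 ± 0.30, adjusted p = 9.1e-04). Ndufv3 had 20 and 8 FPKM in naive basophils, against 79 and 69 FPKM in naive natural helper cells (-2.44 ± 0.45, adjusted p = 0.0059). Atp5j2 had 72 and 39 FPKM in naive basophils, against 191 and 248 FPKM in naive natural helper cells (-2.02 ± 0.36, adjusted p = 0.0050). All 3 genes were more than 2-fold apart in every pair of libraries. Ndufs7, an iron-sulfur subunit of complex I, had 12 and 3 FPKM in naive basophils, against 26 and 28 FPKM in naive natural helper cells (-1.96 ± 0.45, adjusted p = 0.0173). Cox6c had 102 and 64 FPKM in naive basophils, against 170 and 211 FPKM in naive natural helper cells (-1.22 ± 0.35, adjusted p = 0.0371). Sdha had 25 and 19 FPKM in naive basophils, against 34 and 35 FPKM in naive natural helper cells, the smallest difference of those named (-0.64 ± 0.18, adjusted p = 0.0381). The count was 5 without naive basophil library 2 or without natural helper cell library 2, 9 without natural helper cell library 1, and 7 under median-ratio scaling.

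Against naive eosinophils, naive basophils were lower for 7 members, beside 8.66% of all genes, and higher for none, beside 5.3%. At an unadjusted p under 0.05, 1 member, Atp5g2, was higher, beside 9.76% of all genes (log2 difference 0.86 ± 0.26, adjusted p = 0.0611). The median log2 difference was -0.48, beside 0.00 over all genes. Ndufb7, an accessory subunit of complex I, had 33 and 21 FPKM in naive basophils, against 113 and 77 FPKM in naive eosinophils (log2 difference -1.79 ± 0.36, adjusted p = 0.0109). Sdhb had 23 and 23 FPKM in naive basophils, against 56 and 49 FPKM in naive eosinophils (-1.15 ± 0.26, adjusted p = 0.0178). Naive basophils were lower by more than 2-fold in both genes. Ndufa13 had 14 and 12 FPKM in naive basophils, against 40 and 28 FPKM in naive eosinophils (-1.30 ± 0.30, adjusted p = 0.0213), and Cox6a1 139 and 116 FPKM, against 251 and 203 FPKM (-0.83 ± 0.23, adjusted p = 0.0470). Ndufb6, Uqcrq and Sdhaf1 were the others. The count was 0 to 8 when single libraries were left out, 2 lower and 1 higher under median-ratio scaling, and 1 lower and 2 higher under quantile scaling, where the members' median was -0.07 beside -0.07 over all genes.

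**Figure D4:**
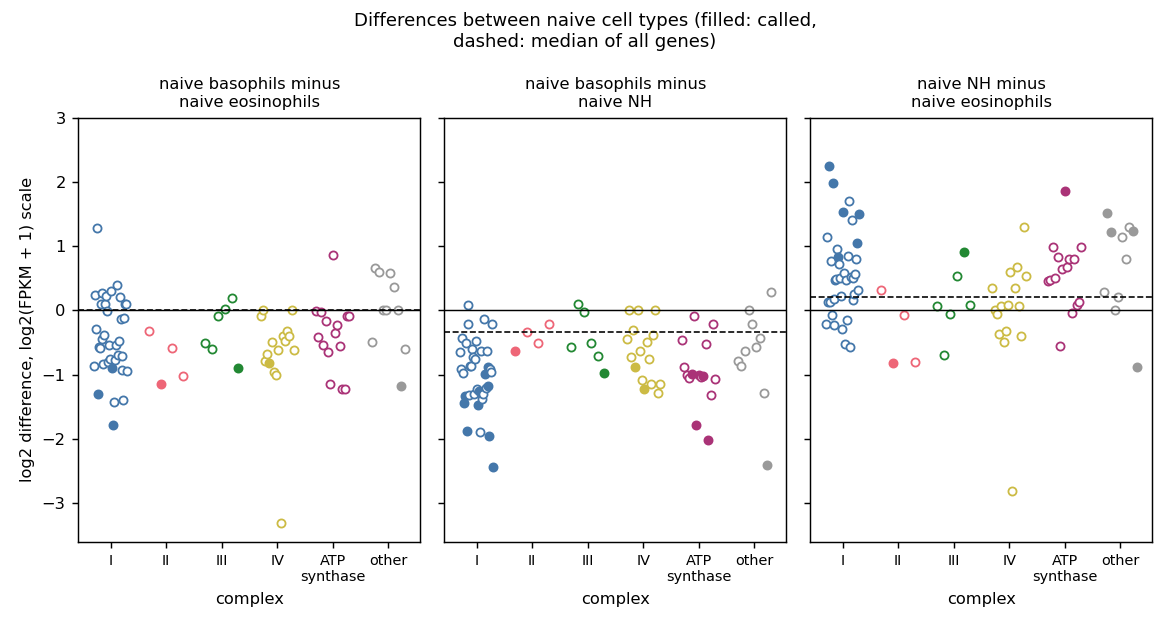
Log2 difference of every tested member (y axis, log2(FPKM + 1) scale) by complex (x axis) between naive cell types; filled points passed the adjusted p of 0.05 and the dashed line is the median of all genes tested. Naive basophils lay below naive natural helper cells with a members' median of -0.86, and complex II had a median of -0.44 in natural helper cells against eosinophils, with 3 of its 4 members below 0.

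Naive natural helper cells were higher than naive eosinophils for 11 members, beside 16.5% of all genes, and lower for 2, beside 11.6%. The median log2 difference was 0.47, beside 0.21 over all genes, and the complexes differed among themselves, with 0.65 in complex V, 0.50 in complex I, 0.06 in complex IV and -0.44 in complex II. Ndufa12, an accessory subunit of complex I, had 37 and 35 FPKM in naive natural helper cells, against 5 and 9 FPKM in naive eosinophils (log2 difference 2.26 ± 0.72, adjusted p = 0.0443). Ndufa5 had 24 and 38 FPKM in naive natural helper cells, against 6 and 8 FPKM in naive eosinophils (1.98 ± 0.56, adjusted p = 0.0276). Natural helper cells were at least 3-fold above eosinophils in each pair of libraries of both genes. Cox7a2l had 140 and 239 FPKM in naive natural helper cells, against 88 and 69 FPKM in naive eosinophils (1.22 ± 0.26, adjusted p = 0.0083), and Uqcrh 323 and 481 FPKM, against 241 and 184 FPKM (0.90 ± 0.23, adjusted p = 0.0167). The lower members were a subunit of succinate dehydrogenase and one of its assembly factors. Sdhb had 26 and 33 FPKM in naive natural helper cells, against 56 and 49 FPKM in naive eosinophils (-0.82 ± 0.26, adjusted p = 0.0417), and Sdhaf2, which attaches the flavin to Sdha, 6 and 5 FPKM, against 11 and 11 FPKM (-0.89 ± 0.24, adjusted p = 0.0213). The 13 calls became 2 to 6 when single libraries were left out, 10 higher and 4 lower under median-ratio scaling, and 29 higher and 1 lower under quantile scaling.

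Subunit c, which forms the rotating ring of ATP synthase, is made from 3 genes whose mature proteins are identical and whose import signals differ. Atp5g2 made up 17.6% and 19.3% of the FPKM of the 3 genes in naive eosinophils, and 16.2% to 19.1% in the papain eosinophil libraries of both gates. In papain basophils its share was 19.1% and 21.0%, against 32.6% and 41.0% in naive basophils. In papain natural helper cells it was 30.6% and 28.5%, against 37.8% and 31.1% in naive natural helper cells, and in the 3'UTRKO library 53.5%. The shares did not overlap between papain and naive in basophils or in natural helper cells, and the 3'UTRKO library was above all others. Since the 3 genes are similar in coding sequence, reads may have been divided among them with error.

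**Figure D5:**
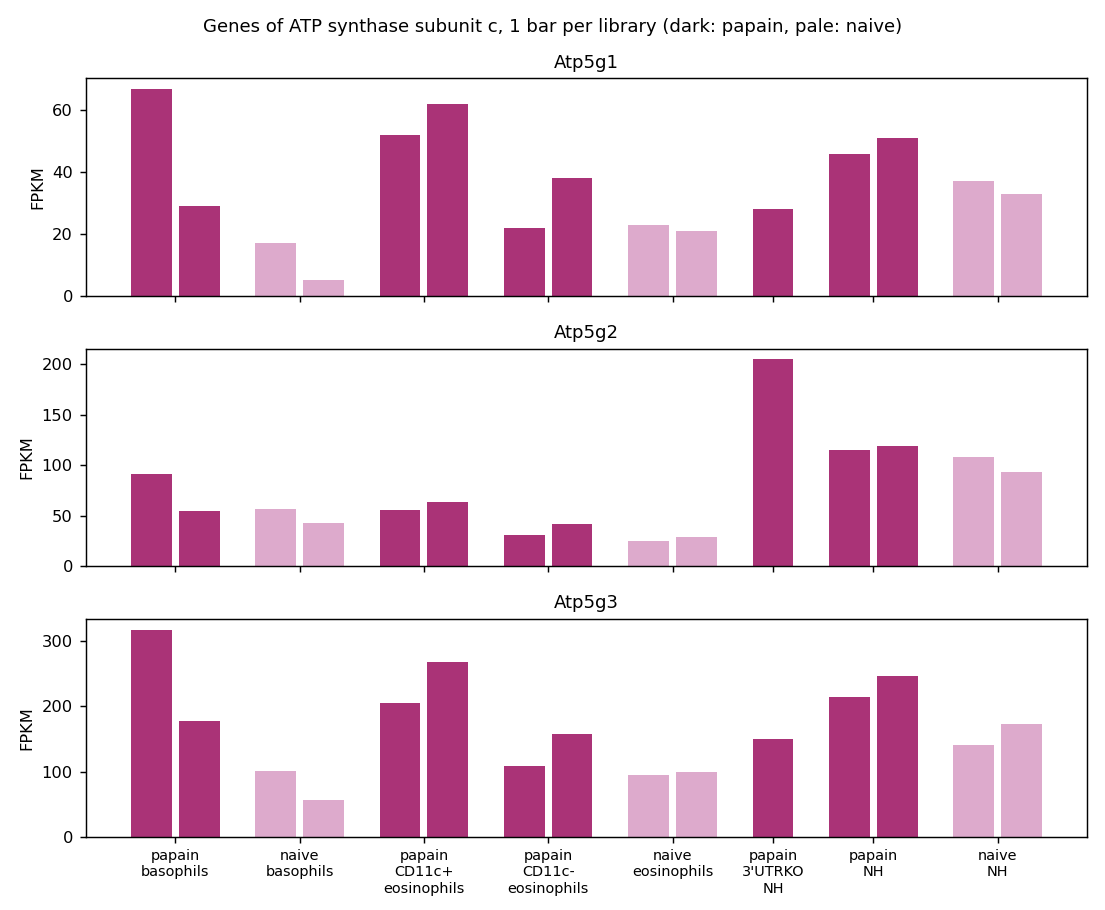
FPKM of Atp5g1, Atp5g2 and Atp5g3 (y axis, 1 panel a gene) in every library, 1 bar a library, with papain groups (dark) to the left of naive ones (pale). Atp5g3 was 318 and 178 FPKM in papain basophils, against 101 and 57 FPKM in naive basophils, whereas Atp5g2 reached 205 FPKM in the 3'UTRKO library, against 115 and 119 FPKM in papain natural helper cells.

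The 3 genes were unlike one another across groups. Atp5g1 had 67 and 29 FPKM in papain basophils, against 17 and 5 FPKM in naive basophils (log2 difference 2.12 ± 0.52, adjusted p = 0.0195), and Atp5g3 318 and 178 FPKM, against 101 and 57 FPKM (1.64 ± 0.35, adjusted p = 0.0112). Atp5g2 had 91 and 55 FPKM in papain basophils, against 57 and 43 FPKM in naive basophils, which overlapped (0.51 ± 0.26, adjusted p = 0.189). In papain CD11c+ eosinophils, Atp5g2 had 56 and 64 FPKM and Atp5g3 206 and 268 FPKM, against 25 and 29 FPKM and 94 and 100 FPKM in naive eosinophils. Both passed there, with log2 differences of 1.12 ± 0.26 (adjusted p = 0.0267) and 1.27 ± 0.35 (adjusted p = 0.0461). Atp5g2 also differed between naive cell types, with 108 and 93 FPKM in naive natural helper cells, against 25 and 29 FPKM in naive eosinophils (1.86 ± 0.26, adjusted p = 8.5e-04), a call kept under all 11 alternatives. Naive basophils had 57 and 43 FPKM, below naive natural helper cells (-1.0 ± 0.26, adjusted p = 0.0266). In the 3'UTRKO library Atp5g2 did not pass against papain natural helper cells (0.80 ± 0.32, adjusted p = 0.473).

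Isoforms known from muscle, lung, testis or other restricted sites were mostly low. Cox4i2, Cox6a2 and Cox8b had at most 3 FPKM in any library, and Cox7b2 and Cox8c were at 0. Cox6b2 had 15 and 0 FPKM in papain basophils, against 3 and 0 FPKM in naive basophils. Cox7a1, the muscle form of subunit 7a, had 18 and 9 FPKM in papain basophils, against 5 and 0 FPKM in naive basophils, and 27 and 20 FPKM in naive eosinophils. It had 14 and 20 FPKM in papain CD11c- eosinophils and 17 and 0 FPKM in papain CD11c+ eosinophils, so that its replicates in the CD11c+ gate disagreed. In natural helper cells of any state it had 1 to 6 FPKM. Its common form, Cox7a2, had 69 and 54 FPKM in naive eosinophils, and Cox4i1, the common form of subunit 4, had 235 to 406 FPKM over all libraries.

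Other mitochondrial genes were taken from fixed lists. In papain against naive basophils, 19 of 75 mitochondrial ribosome genes were higher and none lower (median log2 difference 0.87), 6 of 11 carrier and electron transfer genes were higher (1.27), 4 of 13 citric acid cycle genes were higher and 1 lower (0.94), and 3 of 21 assembly factors were higher and 1 lower (0.29). Among all genes 22.1% were called higher, so the ribosome share was near that of all genes and the assembly factor share below it. Cycs, cytochrome c, had 30 and 21 FPKM in papain basophils, against 13 and 6 FPKM in naive basophils (1.4 ± 0.36, adjusted p = 0.0233). Slc25a4, an ADP/ATP carrier of the inner membrane, had 77 and 36 FPKM in papain basophils, against 16 and 10 FPKM in naive basophils (1.97 ± 0.61, adjusted p = 0.0421). Both partners of the chain were higher together with its subunits. Slc25a5, another ADP/ATP carrier, was not called. It had 221 and 112 FPKM in papain basophils, against 116 and 71 FPKM in naive basophils, which overlapped. Of the 16 regulators of mitochondrial genes, 1 was called higher, with a median of 0.27. The called gene was Pprc1, with 7 and 12 FPKM in papain basophils, against 4 and 2 FPKM in naive basophils. Nrf1 had 7 and 8 FPKM in papain basophils, against 10 and 8 FPKM in naive basophils. Tfam, which packages mitochondrial DNA, had 5 and 6 FPKM, against 4 and 5 FPKM. In natural helper cells and in CD11c- eosinophils none of these lists had a called gene after papain. In CD11c+ eosinophils, 5 of 75 mitochondrial ribosome genes and 4 of 11 carriers were higher, beside 9.93% of all genes, so the ribosome share lay below that of all genes. Of the regulators, Tfam and Myc were called higher there. Tfam had 6 and 9 FPKM in papain CD11c+ eosinophils, against 2 and 3 FPKM in naive eosinophils. Myc had 29 and 21 FPKM, against 4 and 8 FPKM. Nrf1 went the other way without a call, with 8 and 4 FPKM, against 10 and 11 FPKM.

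Citrate synthase (Cs), the entry enzyme of the citric acid cycle, lay outside the members' pattern in basophils. It had 32 and 30 FPKM in papain basophils, against 30 and 22 FPKM in naive basophils (log2 difference 0.26, adjusted p = 0.334). It had 35 and 36 FPKM in papain natural helper cells, against 20 and 15 FPKM in naive natural helper cells (0.99, adjusted p = 0.0539). In papain CD11c- eosinophils it had 26 and 24 FPKM, and in papain CD11c+ eosinophils 27 and 28 FPKM, against 40 and 40 FPKM in naive eosinophils. The response of natural helper cells minus that of CD11c- eosinophils was 1.65 ± 0.26 (adjusted p = 0.0250), as both papain libraries lay above the naive ones in natural helper cells and below them in CD11c- eosinophils. In naive natural helper cells Cs was lower than in naive eosinophils (-1.16, adjusted p = 0.0018), whereas Slc25a4 was higher, with 63 and 62 FPKM in naive natural helper cells, against 2 and 6 FPKM in naive eosinophils (3.79, adjusted p = 0.0018). Myc, a growth regulator that acts on many mitochondrial genes, had 95 and 76 FPKM in naive natural helper cells, against 4 and 8 FPKM in naive eosinophils (3.68, adjusted p = 2.6e-04).

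Most members are short genes. The median length of the longest coding transcript was 934 bases for members, beside 3007 bases over all genes tested, and 47 members were under 1000 bases, beside 6.37% of all genes. In papain against naive basophils, the median log2 difference was 1.00 for members, 1.04 for the 155 other short genes of like level and 0.35 for the 1777 long genes of like level. For naive basophils against naive natural helper cells, the medians were -0.51 for such short genes and -0.13 for long ones, beside -0.86 for members. For naive basophils against naive eosinophils they were -0.47 for short genes and -0.41 for long ones, beside -0.48 for members. In CD11c+ against naive eosinophils they were 0.58 for short genes and 0.21 for long ones, beside 0.65 for members. In papain against naive natural helper cells, short genes of like level had a median of 0.20 and long ones 0.36, beside 0.27 for members. The part of transcript length in the members' differences was not tested. Many members are also known to have processed pseudogenes, and reads shared with such copies may have been counted for either.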

How the data were processed

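RNA of sorted lung cells was sequenced in 15 libraries after poly(A) selection, per the labels' protocols. TopHat 1.4.0, Cufflinks 1.3.0 and the mm9 build are named in the submitters' processing notes; annotation, filters and use of strand are not given in the sources used here. The deposited table holds one score per gene and library, read from its values and tool as FPKM rounded to whole numbers by the authors. Read depth cannot be recovered, so only replicate spread gives precision. Rounding makes values of a few FPKM coarse.

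Commas were removed from 1008 cells and 3 cells next to 0 were set to 0. The 14257 genes that reached 1 FPKM in 2 or more libraries were tested as log2(FPKM + 1) with limma 3.58.1 (R 4.3.3): one model over all 15 libraries with a coefficient per group (7 residual degrees of freedom), eBayes with trend, two-sided, and Benjamini-Hochberg adjustment over all genes tested at 0.05. On the log2(FPKM + 1) scale, changes of low genes are understated. On simulated data, false calls exceeded what the threshold allows.

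Alternatives were a pseudocount of 5, no filter, median-ratio and quantile scaling, small RNA genes left out, a replicate block, the compared groups alone and each library left out. Members, lists and tests were chosen with earlier results of these data known. The text names, per complex, up to 3 called members with the largest rise or fall, a mean of at least 10 FPKM and no overlap of libraries, the highest and lowest members, and fixed subunits, isoforms and other mitochondrial genes. Transcript lengths came from GENCODE M21 and promoters from RefSeq. Figures were drawn with matplotlib 3.10.9.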

Additional observations from a re-analysis of the deposited data

Results flagged for a closer look

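These results are listed because the papain responses of 2 cell types differed in a test of the difference itself (limma interaction terms, adjusted over all genes). In CD11c- eosinophils that response also holds the CD11c gate, which naive eosinophils lacked, so papain and gate cannot be told apart. The response of basophils exceeded that of natural helper cells on the log2 scale by 2.11 for Atp5j2 (adjusted p = 0.0434), 1.76 for Ndufb6 (adjusted p = 0.0215), 1.61 for Uqcrb (adjusted p = 0.0388) and 1.38 for Ndufs5 (adjusted p = 0.0412). The response of Ndufb6 in basophils exceeded that in CD11c- eosinophils by 1.79 (adjusted p = 0.0354). The response of Cs in natural helper cells exceeded that in CD11c- eosinophils by 1.65 (adjusted p = 0.0250). Its difference stayed positive under all 15 alternatives, with adjusted p of 0.0135 to 0.108, and the call was lost under 7 of them: with small RNA genes left out, and without either naive eosinophil, CD11c- eosinophil or papain natural helper cell library. Fibroblast markers were also higher in papain CD11c- than in naive eosinophils, and their part was not tested. In both basophil differences the markers of fibroblasts, epithelium and endothelium were also higher in papain than in naive basophils, and their part was not tested.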

How the results depend on the processing

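With 1 or 2 libraries a group and whole-number FPKM, counts of called members depended on the settings. The share of all genes called under each alternative is not printed, here or above. These counts therefore do not show whether the members changed apart from other genes. For the single 3'UTRKO library, the compared groups alone take their spread from the 2 papain natural helper cell libraries. No conclusion is drawn from that count. For papain basophils (44 called), the counts were 19 under median-ratio scaling, 18 under quantile scaling, 20 with small RNA genes left out, 0 with the compared groups alone and 9 to 51 when single libraries were left out. For papain CD11c+ eosinophils (7 called), the counts were 3 under median-ratio scaling, 3 with small RNA genes left out and 0 to 13 when single libraries were left out. For naive basophils against naive eosinophils (7), they were 4 with a pseudocount of 5, 3 under median-ratio scaling, 3 under quantile scaling, 11 without small RNA genes, 3 with the compared groups alone and 0 to 8 when single libraries were left out. For naive basophils against naive natural helper cells (20), they were 7 under median-ratio scaling, 4 with the compared groups alone and 5 to 24 when single libraries were left out. For naive natural helper cells against naive eosinophils (13), they were 30 under quantile scaling and 2 to 6 when single libraries were left out. With the compared groups alone, the comparisons without a called member gave 2 in papain natural helper cells, 1 in papain CD11c- eosinophils and 14 for the 3'UTRKO library, and leaving out single libraries gave 0 to 3 between the CD11c gates.

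The response of basophils beyond that of natural helper cells (4) gave 2 without small RNA genes, 0 with the compared groups alone and 0 to 9 when single libraries were left out. The response beyond that of CD11c- eosinophils (1) gave 0 under quantile scaling, 0 without small RNA genes, 0 with the compared groups alone and 0 to 6 when single libraries were left out. Uqcrc2 in papain basophils reversed under quantile scaling, at -0.00698 (adjusted p = 0.985). The replicate numbers did not pair the libraries, since deviations of same-numbered libraries correlated at -0.153 to 0.116; with the replicate block the counts were 43 for papain basophils, 4 for papain CD11c+ eosinophils, 13 for naive basophils against naive natural helper cells, 1 for the response beyond natural helper cells and 0 for that beyond CD11c- eosinophils. Of the named values, 70 of 78 kept their call with a pseudocount of 5 or without the filter, 49 under median-ratio scaling and 16 with the compared groups alone. Except where a setting has fewer libraries, the cause was not tested.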
